A study of Mus musculus with 8 samples.

Results

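Surfactant genes and the other genes that mark alveolar type 2 cells were followed in lungs of mice that carried transplanted marrow and had been given diphtheria toxin. The set holds 10 genes, chosen by name: the surfactant proteins Sftpa1, Sftpb, Sftpc and Sftpd, the protease Napsa, the lamellar body genes Abca3, Lamp3 and Lpcat1, the phosphate transporter Slc34a2 and the transcription factor Etv5. They were 10 of the 25830 genes tested, carried by 16 of the 56605 probes on the array, and 15 of those probes passed the detection filter. All 10 genes were well above background on all 8 arrays.

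The study measured total RNA of whole lungs from 8 male mice aged 22 weeks, each transplanted with bone marrow and killed 72 h after the toxin. Every mouse received the toxin, so none of the groups shows a lung without it. LysM-DTR mice carry the diphtheria toxin receptor under the lysozyme M promoter, which makes cells that use this promoter sensitive to the toxin. Groups are written donor first and recipient second, L for LysM-DTR and W for wild type. LL mice thus carried the receptor gene in marrow-derived and in recipient cells, LW mice in marrow-derived cells, WL mice in recipient cells, and WW mice in neither. There were 2 mice a group and 1 array per mouse, and the labels do not say how the recipient's own marrow was removed or how many of its blood cells remained. The lysozyme M promoter is known to be active in macrophages, neutrophils and alveolar type 2 cells, so the receptor is not specific to 1 cell type.

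Alveolar type 2 cells make pulmonary surfactant, the film of lipid and protein that lowers surface tension in the alveolus and keeps it open. The small hydrophobic proteins SP-B (Sftpb) and SP-C (Sftpc) help the lipid film to spread, whereas the collectins SP-A (Sftpa1) and SP-D (Sftpd) bind microbes. SP-A, SP-B and SP-D are also made by club cells of the airway, while SP-C is largely restricted to type 2 cells. The lipids are stored in lamellar bodies, which ABCA3 fills and LAMP3 lines, and type 2 cells are also the progenitors that replace the flat alveolar type 1 cells after injury.

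The sequences below are those of probes for the surfactant proteins and Napsa, as the array annotation gives them, since a level on an array is the signal of this short stretch of a transcript. The Sftpa1 probe lies at chr14:41947507-41947566 and the Sftpd probe at chr14:41985664-41985723, on opposite strands and 38097 bases apart. The Sftpc probe spans an intron at chr14:70920899-70921159, and its first 30 of 60 bases are shown. The Sftpb probe shown is the dimmer of its pair, whose values are given with the other second probes and not with the levels of Sftpb, and spans at least 1 intron at chr6:72257183-72259754, and the brighter Napsa probe spans an intron at chr7:51840710-51841119. All positions are on mm9, the build of the array annotation.
Sftpa1: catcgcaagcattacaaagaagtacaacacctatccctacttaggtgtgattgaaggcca
Sftpb: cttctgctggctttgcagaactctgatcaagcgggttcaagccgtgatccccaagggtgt
Sftpc: ggagagctaccactctactatatctagcat
Sftpd: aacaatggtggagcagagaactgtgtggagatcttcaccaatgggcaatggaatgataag
Napsa: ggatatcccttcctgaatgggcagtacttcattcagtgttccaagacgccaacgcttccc

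Levels are given as the log2 of the processed signal minus the 75th percentile of the same array. A difference of 1 on this scale is a factor of 2, and the level of one probe cannot be set against that of another. That percentile lay between 208.6 and 324.4 intensity units over the arrays, 66.3% to 72.3% of spots were well above background, and no spot was saturated. The 2 mice of a group were alike in LL, LW and WW, with r from 0.99 to 0.992 over all genes tested, but not in WL, where r was 0.96. WL replicate 1 lay closest to WW (r = 0.99), whereas WL replicate 2 lay closest to LL (r = 0.968 and 0.976). All comparisons were fitted together with limma on 8 arrays, so this spread enters every error, and results are therefore also given from a fit without both WL arrays. The labels do not call the mice anything but samples of 1 group. The p-values set each difference against the spread between mice within groups, pooled over the groups and moderated across genes. The fit without the WL arrays leaves out the mice that differed most, so its SEs and p-values do not carry that spread. The arrays shared 1 slide and 1 scan, with recipient genotype as the slide column and donor genotype as the place in it, so slide position and group cannot be told apart.

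In LL lungs all 10 genes were lower on both arrays than on both WW arrays, which was so for 32.4% of all genes tested. The decrease was large for Lamp3, Etv5, Napsa, Slc34a2, Sftpc and Lpcat1, 3.66-fold to 6.3-fold, and smaller for Sftpa1 and Abca3, 2.17-fold and 1.91-fold. That of Slc34a2 was seen on its brighter probe only. Sftpb and Sftpd were each 1.19-fold lower. None of the 10 passed limma's test at an adjusted p under 0.05 in the fit of all 8 arrays, in which 3.13% of all genes were called. An unadjusted p under 0.05 was found for 7 of the 10, and the share of all genes at that cut was not computed. In the fit without the WL arrays 8 of the 10 fell, all but Sftpb and Sftpd, beside 14.8% of all genes called lower. That fit leaves out the group with the largest spread between mice, so its calls do not carry that spread. The means of LW and WW lay within 1.12-fold of each other in all 10, and in WL 1 mouse resembled WW and the other LL.

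**Figure D1:**
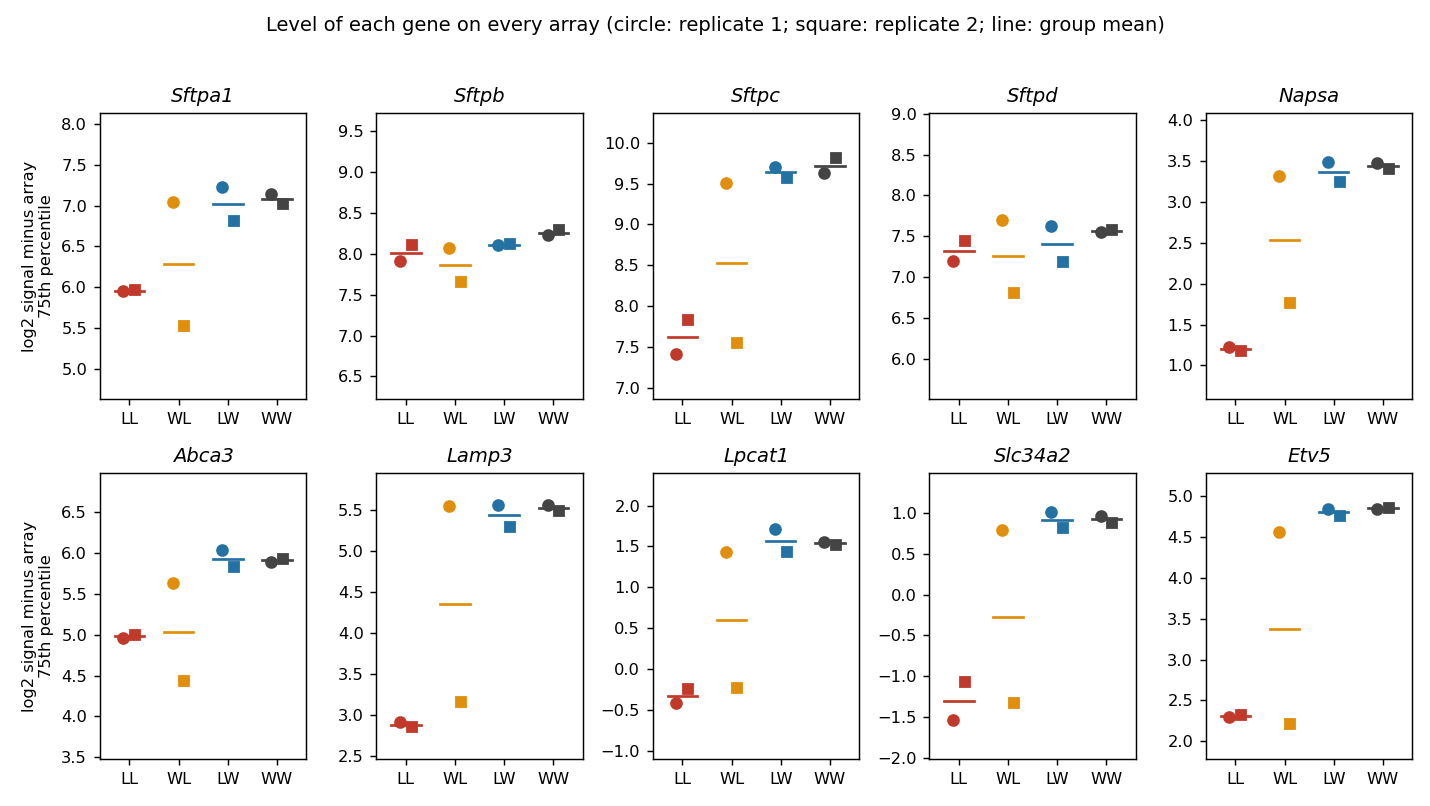
Level of each gene on every array, as log2 signal minus the 75th percentile of the array (y axis, the same height of 3.5 log2 units in each panel), by group (x axis). Circles are replicate 1, squares replicate 2 and lines group means. Both LL points lie below both WW points in each panel, and the WL points lie far apart in all panels except that of Sftpb.

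Among the surfactant proteins, Sftpc had the largest difference. Its level was 7.41 and 7.83 on the LL arrays, 9.51 and 7.55 on the WL arrays, 9.70 and 9.57 on the LW arrays, and 9.63 and 9.81 on the WW arrays. Both LL mice and WL replicate 2 were low, and the other 5 arrays were high without overlap. LL was 2.10 below WW (log2, SE 0.587, n = 2 against 2, adjusted p = 0.112 with limma), and without the WL arrays the same difference had an SE of 0.171 and passed (adjusted p = 0.00301). The mean level in LL was thus 23.3% of that in WW. In bulk tissue, fewer cells of a type and less RNA per cell cannot be told apart, for this gene and for the others.

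Sftpa1 differed in the same direction by less. Its level was 5.96 and 5.97 in LL, 7.05 and 5.53 in WL, 7.23 and 6.81 in LW, and 7.14 and 7.02 in WW. WL replicate 2 was below both LL mice, and LW replicate 2 was slightly below both WW mice. LL was 1.12 below WW (SE 0.466, adjusted p = 0.206 with limma; SE 0.159 and adjusted p = 0.00806 without the WL arrays).

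Sftpb and Sftpd stayed near their WW levels in LL. The level of Sftpb was 7.91 and 8.11 in LL, 8.07 and 7.65 in WL, 8.11 and 8.12 in LW, and 8.23 and 8.29 in WW. Sftpd was at 7.20 and 7.44 in LL, 7.70 and 6.81 in WL, 7.62 and 7.19 in LW, and 7.55 and 7.58 in WW. For both genes the LL arrays lay below the WW arrays, and for Sftpd they overlapped with the LW arrays. LL was 0.25 below WW for each, with an SE of 0.18 for Sftpb and 0.315 for Sftpd (adjusted p = 0.404 and 0.637 with limma). Without the WL arrays neither passed either (adjusted p = 0.132 and 0.338), and the 95% intervals ran from -0.52 to 0.02 for Sftpb and from -0.70 to 0.21 for Sftpd. A decrease of that size was therefore not detectable with 2 mice a group, and these intervals do not reach the change of Sftpc, whose interval ran from -2.54 to -1.66 in that fit. In the fit of all 8 arrays the intervals of Sftpb (-0.69 to 0.19) and Sftpd (-1.01 to 0.52) met that of Sftpc (-3.53 to -0.68). Sftpa1 and Sftpd, neighbours on chromosome 14, thus differed in LL by 1.12 and 0.25 from WW.

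Set against Sftpb on the same array and relative to WW, Sftpc was at -1.96 and -1.74 in LL, -0.02 and -1.56 in WL, and 0.13 and -0.01 in LW. Sftpd relative to Sftpb was at -0.02 and 0.03 in LL, 0.33 and -0.15 in WL, and 0.20 and -0.24 in LW. The ratio of Sftpc to Sftpb was thus reduced on the same 3 arrays on which Sftpc itself was low, whereas Sftpd and Sftpb kept about the same ratio there. These ratios are for the brighter Sftpb probe. In WL replicate 2 its second probe was at only -0.19 from the WW mean, beside -0.61 on the brighter and -0.76 for Sftpd. A ratio within an array shows unequal change and does not depend on how the arrays were scaled.

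Napsa encodes napsin A, an aspartic protease that takes part in the maturation of SP-B. Its level was 1.23 and 1.18 in LL, 3.32 and 1.76 in WL, 3.49 and 3.25 in LW, and 3.48 and 3.40 in WW. LL was 2.24 below WW (SE 0.466, adjusted p = 0.0635 with limma), the smallest adjusted p of the 10, and passed without the WL arrays (SE 0.115, adjusted p = 0.00171). WL replicate 2 lay between LL and the other arrays for this gene. Napsa RNA was thus at 21.2% of its WW level in LL lungs and RNA of Sftpb, whose product napsin A processes, at 84.1%. The proteins were not measured on these arrays.

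The lamellar body genes did not move by the same amount. Lamp3, a membrane protein of the lamellar body, was at 2.91 and 2.85 in LL, 5.55 and 3.16 in WL, 5.57 and 5.30 in LW, and 5.57 and 5.49 in WW. Abca3, the transporter that loads phospholipid into the lamellar body, was at 4.96 and 4.99 in LL, 5.63 and 4.43 in WL, 6.03 and 5.83 in LW, and 5.89 and 5.93 in WW. In each gene both LL mice were below all 4 LW and WW mice. Lamp3 had the largest decrease of the 10, with LL 2.66 below WW (SE 0.695, adjusted p = 0.0992 with limma; SE 0.124 and adjusted p = 0.00168 without the WL arrays). Abca3 had a smaller one, 0.93 (SE 0.367, adjusted p = 0.191; SE 0.106 and adjusted p = 0.00487 without the WL arrays). Without the WL arrays the 95% interval of Abca3 (-1.20 to -0.66) and that of Lamp3 (-2.97 to -2.34) did not meet.

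Lpcat1 encodes an acyltransferase that makes the disaturated phosphatidylcholine of surfactant. It was at -0.41 and -0.25 in LL, 1.43 and -0.23 in WL, 1.71 and 1.43 in LW, and 1.55 and 1.52 in WW. LL was 1.87 below WW (SE 0.496, adjusted p = 0.102 with limma; SE 0.131 and adjusted p = 0.00249 without the WL arrays). WL replicate 2 matched the LL mice, and no LW or WW mouse came near them.

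Slc34a2 encodes the sodium-phosphate cotransporter of the type 2 cell surface. On its brighter probe it was at -1.53 and -1.07 in LL, 0.79 and -1.33 in WL, 1.01 and 0.81 in LW, and 0.96 and 0.88 in WW. LL was 2.22 below WW (SE 0.631, adjusted p = 0.116 with limma; SE 0.182 and adjusted p = 0.00301 without the WL arrays). A second Slc34a2 probe did not follow it, as given below, and with the mean of both probes the difference was -0.86.

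Etv5 is an ETS-family transcription factor that acts downstream of FGF and ERK signalling and supports type 2 cell identity. It was at 2.30 and 2.32 in LL, 4.56 and 2.21 in WL, 4.84 and 4.76 in LW, and 4.84 and 4.86 in WW. The LL mice were almost equal and far below LW and WW, and WL replicate 2 was lower still. LL was 2.54 below WW (SE 0.679, adjusted p = 0.104 with limma; SE 0.0883 and adjusted p = 0.00164 without the WL arrays), which left 17.2% of the WW level.

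In order of the difference between LL and WW the genes ran Lamp3, Etv5, Napsa, Slc34a2, Sftpc, Lpcat1, Sftpa1, Abca3, Sftpb and Sftpd. Only the steps from Lpcat1 to Sftpa1 (0.75) and from Abca3 to Sftpb (0.68) were larger than the SEs of both neighbours in the fit of all 8 arrays. In that fit the 95% intervals of Lpcat1 (-3.08 to -0.67) and Sftpa1 (-2.25 to 0.02) overlapped. Those of Abca3 (-1.82 to -0.04) and Sftpb (-0.69 to 0.19) did so too. A step larger than both SEs does not show that neighbours differed, and the order was not tested in either fit. Without the WL arrays the steps from Etv5 to Napsa (0.30), from Sftpc to Lpcat1 (0.23) and from Sftpa1 to Abca3 (0.19) were also larger than both SEs, and the other 4 were not. The median difference of the 10 was -1.99, beside 0.03 over all genes tested.

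**Figure D2:**
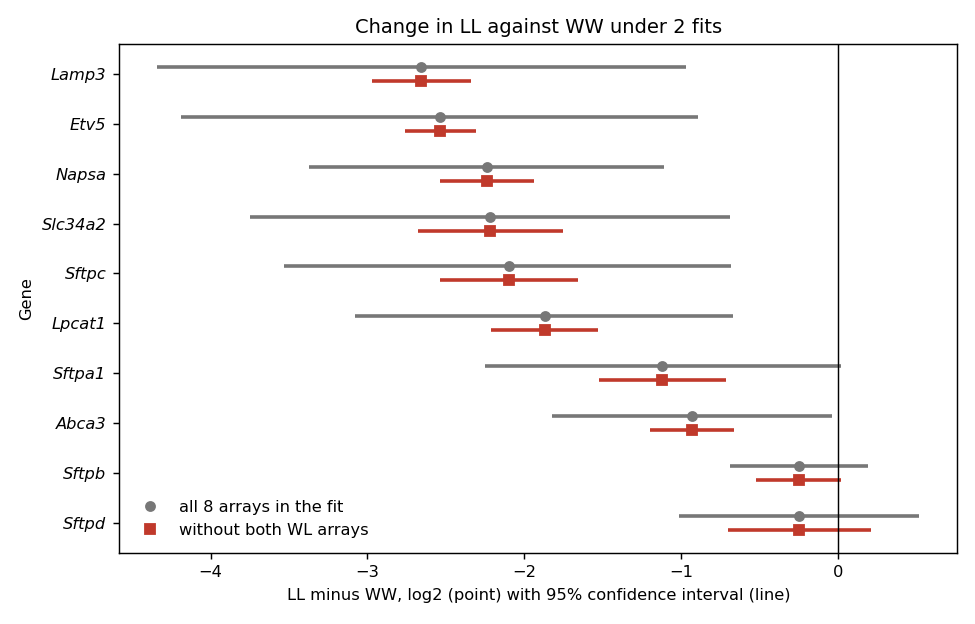
Difference between LL and WW for each gene on the log2 scale (x axis), with 95% confidence intervals, from the fit of all 8 arrays (grey circles) and from the fit without both WL arrays (red squares). Estimates are the same in both fits, intervals are wider with the WL arrays, and without them the intervals of 8 genes exclude 0 while those of Sftpb (-0.52 to 0.02) and Sftpd (-0.70 to 0.21) include it.

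The comparison of LL with LW asks about the recipient's genotype when the marrow carries the receptor gene in both groups. It has its own controls, while it shares the LL mice with the comparison above. Here 9 of the 10 genes were lower on both LL arrays than on both LW arrays, all but Sftpd, beside 31.6% of all genes. None was called in the fit of all 8 arrays (2.8% of all genes called, with limma's adjusted p from 0.0683 for Napsa to 0.877 for Sftpd). An unadjusted p under 0.05 was found for 7, and again the share of all genes at that cut was not computed. Without the WL arrays 8 fell, again all but Sftpb and Sftpd, beside 14.4% of all genes called lower. LL was below LW by 2.56 for Lamp3, 2.49 for Etv5, 2.21 for Slc34a2, 2.17 for Napsa, 2.02 for Sftpc, 1.90 for Lpcat1, 1.05 for Sftpa1 and 0.95 for Abca3. The differences of Sftpb and Sftpd were -0.10 and -0.08.

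LW lungs, in which the receptor gene was in the marrow only, had levels of the 10 genes near those of WW. Differences from WW ran from -0.16 for Sftpd to 0.03 for Lpcat1, and none was called (adjusted p = 1 for each with limma, 0.0542% of all genes called, and 0 of the 10 at an unadjusted p under 0.05). LW replicate 2 was below both WW mice in all 10 genes, by 0.08 to 0.38 from the WW mean, whereas LW replicate 1 was below the WW mean in 3. The shares of all genes for these single arrays were not computed, and the mean over all genes tested was -0.03 on LW replicate 2. Both LW arrays lay below both WW arrays in 2 of the 10, Sftpb and Etv5, beside 20.1% of all genes. Without the WL arrays the 95% intervals for Sftpc ran from -0.52 to 0.35 and for Etv5 from -0.28 to 0.18.

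WL lungs, in which the receptor gene was in recipient cells only, gave 2 different pictures. In replicate 1 the 10 genes lay between -0.29 and 0.14 from the WW mean, with 8 of them below 0. In replicate 2 all 10 were below every LW and WW array, by 0.61 to 2.64 from the WW mean, and 5 were below both LL arrays. The shares of all genes that lay so on this array were not computed, and the mean over all genes tested was -0.06 there. The 5 were Sftpa1, Sftpb, Sftpd, Abca3 and Etv5. Relative to the WW mean, WL replicate 2 was at -2.64 for Etv5, -2.37 for Lamp3, -2.25 for Slc34a2, -2.17 for Sftpc, -1.77 for Lpcat1, -1.68 for Napsa, -1.56 for Sftpa1 and -1.48 for Abca3. Sftpb (-0.61) and Sftpd (-0.76) were again the least reduced, though by more than in either LL mouse, where they were at -0.13 to -0.37. For Sftpb this held on its brighter probe only. On the second, WL replicate 2 was at 3.83, between the LL mice (3.64 and 3.95).

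**Figure D3:**
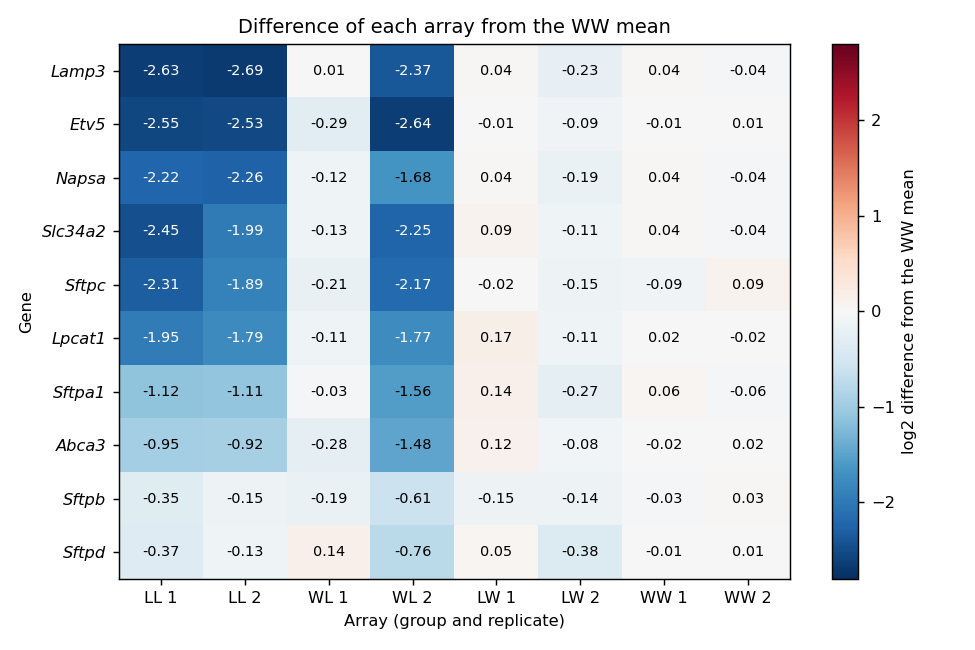
Difference of every array (x axis) from the WW mean of the same gene (y axis), in log2 units given in each cell and as colour. The LL arrays and WL replicate 2 are below 0 in every gene, from -0.13 to -2.69, and WL replicate 1 and the LW arrays lie between -0.38 and 0.17.

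The WL group mean lay between WL replicate 1 and WL replicate 2 and had SDs of 0.29 to 1.7, against at most 0.33 in the other groups. None of the 10 was called against WW (adjusted p from 0.486 to 0.597 with limma, 0.00387% of all genes called), and both WL arrays lay below both WW arrays in 7 of the 10, beside 24.4% of all genes. Without WL replicate 1 all 10 were called lower against WW, beside 19.2% of all genes, and without WL replicate 2 none was, beside 0.00387% of all genes. In those fits the lone WL mouse is assumed to vary like the other groups. None of the 10 was called between LL and WL (adjusted p from 0.264 to 0.969, 1.72% of all genes called), and LL lay below both WL arrays in 3, Lamp3, Napsa and Lpcat1, beside 14.3% of all genes. The interaction, which asks whether the recipient's effect depends on the marrow, was called for none, with terms from -1.38 to 0.29 (adjusted p from 0.656 to 0.99, 0.0619% of all genes called). Without WL replicate 2, 8 of the 10 were called lower in LL than in WL, beside 8.94% of all genes, and 6 had a called interaction below 0, beside 3.91%.

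For 5 of the genes a second probe passed the detection filter, which gives a check within the gene. The second probes of Napsa and Lpcat1 gave differences between LL and WW of -2.21 and -1.87, beside -2.24 and -1.87 on the brighter probes. That of Sftpb gave -0.22 beside -0.25, and that of Abca3 -0.66 beside -0.93. Each pair thus had the same direction, and a further Abca3 probe was above background on no array. In WL replicate 2 the Sftpb probes parted, with -0.19 from the WW mean on the second probe and -0.61 on the brighter.

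Slc34a2 was the exception. Its brighter probe starts at base 2920 of the RefSeq transcript, and the other starts at base 95 of another transcript model and spans 19978 bases of the genome (chr5:53429415-53449392, mm9). The second probe was at -0.09 and -0.40 in LL, -0.89 and -2.09 in WL, -0.82 and -0.62 in LW, and -0.81 and -0.68 in WW. Both LL mice were thus above all LW and WW mice on this probe, and WL replicate 2 was below them. LL was 0.50 above WW on it (SE 0.377, adjusted p = 0.428 with limma over all 39603 kept probes), against 2.22 below on the other.

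**Figure D4:**
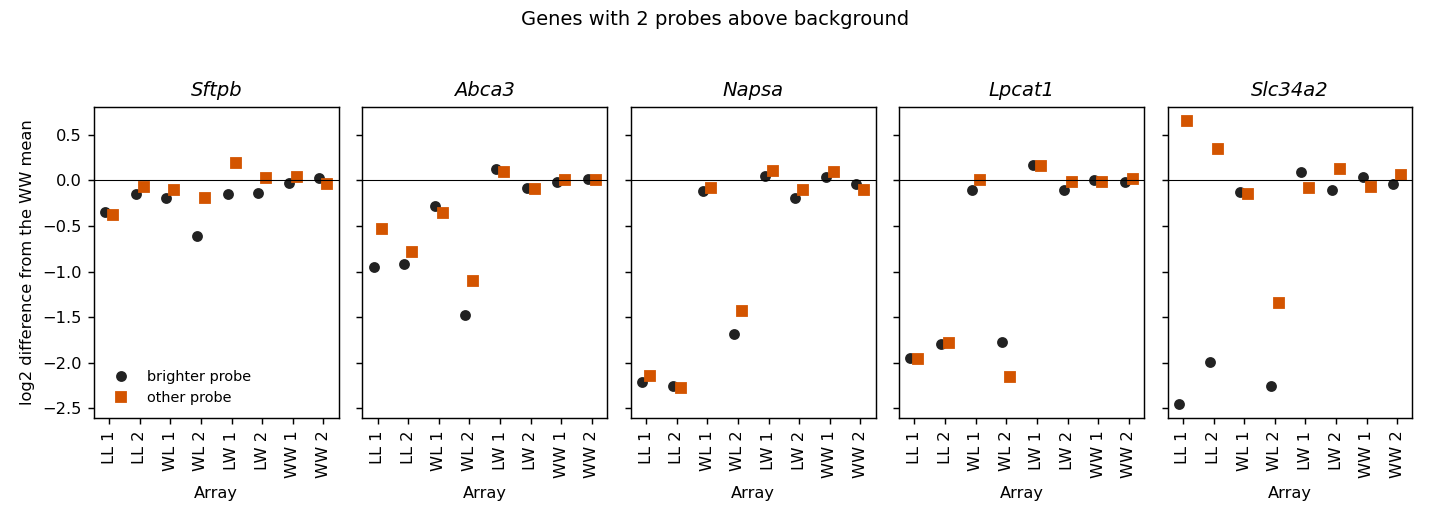
Difference of every array (x axis) from the WW mean (y axis, log2) on the brighter probe (black circles) and the other kept probe (orange squares) of the 5 genes that have both. The probes of Napsa and Lpcat1 nearly coincide on the LL arrays, and those of Slc34a2 lie on opposite sides of 0 there.

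Promoters of the genes were set side by side from a RefSeq table on GRCm38.p6, which held 7 of the 10 genes (all but Sftpc, Sftpd and Napsa). Of those shown, Slc34a2 was lower in LL than in WW on its brighter probe only, and 0.50 higher on the other. The 250 bases before the start site of Lamp3, with the largest decrease, lie at chr16:19706366-19706615 on the minus strand, those of Slc34a2 at chr5:53049103-53049352 and those of Sftpb, with a small difference, at chr6:72304360-72304609, both on the plus strand. Capitals mark matches, on either strand, to motifs of factors known in type 2 cells: CACTNNAG (NKX2-1 type), TTGCNNAA (C/EBP type), CCGGAAG (ETS type) and TGTTTAC (FOXA type).
Lamp3: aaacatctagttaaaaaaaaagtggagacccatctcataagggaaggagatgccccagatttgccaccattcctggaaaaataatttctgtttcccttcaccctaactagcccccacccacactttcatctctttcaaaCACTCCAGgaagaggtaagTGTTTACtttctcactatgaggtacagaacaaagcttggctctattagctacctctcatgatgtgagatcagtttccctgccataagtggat
Slc34a2: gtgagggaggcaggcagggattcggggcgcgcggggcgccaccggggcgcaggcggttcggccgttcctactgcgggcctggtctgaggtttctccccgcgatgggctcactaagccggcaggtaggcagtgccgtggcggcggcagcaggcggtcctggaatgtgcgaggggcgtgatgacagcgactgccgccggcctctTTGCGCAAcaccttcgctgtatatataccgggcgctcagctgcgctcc
Sftpb: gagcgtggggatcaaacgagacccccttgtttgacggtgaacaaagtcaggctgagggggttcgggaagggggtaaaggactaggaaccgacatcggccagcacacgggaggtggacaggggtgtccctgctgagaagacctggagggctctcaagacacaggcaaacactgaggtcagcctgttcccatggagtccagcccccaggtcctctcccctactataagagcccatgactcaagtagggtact
Lamp3 held a match to the NKX2-1 type from 111 to 104 bases before the start and to the FOXA type from 92 to 86. Slc34a2 held 1 C/EBP-type match from 48 to 41 bases before the start, which reads the same on both strands. The Sftpb window held no match, nor did those of Sftpa1 and Lpcat1, while Abca3 had an NKX2-1-type match and 1 of the 2 Etv5 promoters a FOXA-type match. Of 32851 promoters in the table, 12.9% held the NKX2-1 type, 9.6% the C/EBP type, 6.9% the ETS type and 3.2% the FOXA type. A match is a description of letters, and its absence says nothing about binding of a factor.

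Other genes of the type 2 cell programme and markers of other cells were summarised from lists. Their counts in LL against WW stand beside 3.13% of all genes called in the fit of all 8 arrays, and beside 14.8% called lower and 17.3% called higher in the fit without the WL arrays. The 10 list genes named below as called in LL against WW lost that call without LL replicate 1 (adjusted p from 0.0565 to 0.221 with limma), without WW replicate 1 (0.094 to 0.23) and without WW replicate 2 (0.0919 to 0.227), and 9 did without LL replicate 2. Cebpa, Ccr7, Ear2 and Mrc1 also lost it without either LW mouse (0.0519 to 0.106). Of 20 further type 2 markers, all were below 0 in LL against WW (median -1.37, from -5.55 to -0.14), and 3 fell in the fit of all 8 arrays. These were Lyz1 and Lyz2, the lysozymes, at -4.57 and -4.27 (adjusted p = 0.0144 and 0.0122 with limma), and Fabp5, a fatty acid binding protein, at -2.77 (adjusted p = 0.013). Macrophages also express Lyz2 and Fabp5. In the fit without the WL arrays 16 of the 20 fell, beside 14.8% of all genes. In WL replicate 2 Lyz2 was at 7.36, beside 4.67 and 4.94 in LL and 9.05 and 9.09 in WW, so this mouse, which matched LL in Sftpc, did not match it in Lyz2.

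Of 20 genes of surfactant lipid synthesis 0 were called in the fit of all 8 arrays (median -0.25, 14 below 0). Of these, 9 fell without the WL arrays, beside 14.8% of all genes, and 3 rose, near the 17.3% of all genes. Those that fell included the desaturase Scd1, by 2.54, and the fatty acid synthase Fasn, by 1.34 (adjusted p = 0.00531 and 0.00296 with limma in that fit), both chosen after their values were seen. Mid1ip1, which activates acetyl-CoA carboxylase, was at -1.14 and the fatty acid elongase Elovl6 at 1.06 (adjusted p = 0.0884 and 0.0961 with limma). Of 18 processing and secretion genes 0 were called (median 0.05), and 4 rose and 1 fell without the WL arrays, beside 17.3% and 14.8% of all genes. Ctsh, a cathepsin that also takes part in SP-B maturation, was higher in LL, at 6.99 and 7.41 against 5.85 and 5.82 in WW, a difference of 1.36 (SE 0.323, adjusted p = 0.0828 with limma; adjusted p = 0.00777 without the WL arrays). The adenosine receptor Adora2b was at -0.91 (adjusted p = 0.0749). RNAs of Napsa and Ctsh, 2 proteases that take part in SP-B maturation, thus lay on opposite sides of WW in LL, Napsa below and Ctsh above. Neither was called in the fit of all 8 arrays.

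Among 16 transcription factors of type 2 cells 1 fell, Cebpa, at -1.69 (SE 0.308, adjusted p = 0.0469 with limma), and the list's median was -0.22. Nkx2-1, the master regulator of lung epithelium, was at 1.57 and 1.42 in LL, 2.03 and 0.78 in WL, 2.46 and 2.37 in LW, and 2.47 and 2.30 in WW, a difference between LL and WW of -0.89 (adjusted p = 0.211; 0.00607 without the WL arrays). Foxa2 was at -0.29 (adjusted p = 0.324; 0.169 without the WL arrays). Of the 16, 3 rose and 5 fell without the WL arrays, beside 17.3% and 14.8% of all genes. In the FGF, ERK and ETV list, to whose pathway Etv5 belongs, 0 of 15 were called and the median was 0.10. Etv4, the close relative of Etv5, was at 1.30 and the ERK phosphatase Dusp4 at 1.01, both above 0 (adjusted p = 0.139 and 0.148 with limma, and 0.00335 and 0.00665 without the WL arrays). Etv1 of the same list, chosen after its value was seen, was at -0.85 (adjusted p = 0.305 with limma, and 0.012 without the WL arrays). Etv5 and Etv1 thus lay below WW and Etv4 above it. Of the list's 15 genes 9 were above 0 and 6 below. Of the 15, 3 rose and 3 fell without the WL arrays, near the 17.3% and 14.8% of all genes.

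Markers of other lung cells were read from the same arrays. The epithelial genes Epcam and Cdh1 were at -0.15 and 0.21 in LL against WW (adjusted p = 0.81 and 0.594 with limma), and of 12 genes shared by all epithelium 0 were called and 2 rose without the WL arrays (median 0.12, list means of 0.06 and 0.25 on the LL arrays). Prom1 and Esrp1 had the smallest p of that list, at -0.57 and 0.43. Of 17 type 1 cell genes Timp3 rose in the fit of all 8 arrays (1.27, adjusted p = 0.0157), and without the WL arrays 10 rose and 1 fell, beside 17.3% and 14.8% of all genes. Aqp5, a water channel, rose against LW in the fit of all 8 arrays (adjusted p = 0.0361) and was at 0.68 against WW (adjusted p = 0.0652). The type 1 markers Ager and Hopx were at 0.36 and 0.48, and the list's median was 0.46. In WL replicate 2, by contrast, the list mean was -0.61, beside 0.45 and 0.37 in LL, while the means of the 10 surfactant and type 2 genes were alike (-1.73, beside -1.69 and -1.55). All 18 genes of the alveolar transitional state, which type 2 cells are known to pass through on the way to type 1 cells, were above 0 in LL (median 1.76; 0 called, 17 called higher without the WL arrays), with Krt8 at 1.64, Krt19 at 2.45 and S100a6 at 2.07. That list's mean was 2.08 and 2.27 in LL, 0.18 and 3.02 in WL, and -0.06 and -0.05 in LW.

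Club cells are the other known source of Sftpa1, Sftpb and Sftpd. The secretoglobin Scgb1a1, which defines them, was at 9.44 and 9.45 in LL, 9.35 and 8.99 in WL, 9.50 and 9.50 in LW, and 9.49 and 9.68 in WW, a difference between LL and WW of -0.14 (SE 0.169, adjusted p = 0.617 with limma). The cytochrome Cyp2f2 was at -1.78 (adjusted p = 0.212; 0.00257 without the WL arrays) and Scgb3a2 at -0.79 (adjusted p = 0.331; 0.0101 without them). Of 14 club cell genes 0 were called in the fit of all 8 arrays and 10 were below 0. In the fit without the WL arrays 8 of the 14 fell and 2 rose, beside 14.8% and 17.3% of all genes. The list mean was -0.46 and -0.28 in LL, 0.07 and -0.98 in WL, and -0.10 and 0.17 in LW. Gabrp and Krt15 had the smallest p of the list, at -0.83 and 3.82. All 10 ciliated cell genes were below 0 (median -0.68, 0 called, 8 called lower without the WL arrays), among them Sntn at -1.21 and Tppp3 at -1.70. The part of club cells in the levels of Sftpa1, Sftpb and Sftpd was not tested.

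Lamp3 is also made by mature dendritic cells, which express Ccr7. Ccr7 fell in LL (0.17 and 0.14 against 3.03 and 2.85 in WW, a difference of -2.78, adjusted p = 0.0337 with limma) and was at 2.70 and 1.36 in WL. Of 10 mature dendritic cell genes it was the only one called in the fit of all 8 arrays, and 2 rose and 2 fell without the WL arrays. The list's median was -0.33 with 5 genes above 0 and 5 below. The list mean was -0.51 and -0.27 in LL, 0.03 and 0.11 in WL, and -0.05 and -0.63 in LW, where Lamp3 was at -0.10 from WW. The part of dendritic cells in the Lamp3 level was not tested.

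Alveolar macrophages take up and clear surfactant. Of 17 genes of these cells 5 fell in LL in the fit of all 8 arrays and 11 without the WL arrays (median -1.85), among them the integrin Itgax at -4.52, the GM-CSF receptor chain Csf2ra at -1.85, the mannose receptor Mrc1 at -2.38 and Ear2 at -3.34 (adjusted p = 0.0122, 0.0122, 0.0264 and 0.0409 with limma). In WL replicate 2 13 of the 17 were below the WW mean and 4 above it. There Itgax was at 2.26, Csf2ra at 3.89 and Mrc1 at 2.33, beside WW values of 2.38 and 2.54, 3.55 and 3.56, and 1.04 and 1.21. Ear2 was at 2.88 there, beside 4.10 and 4.32 in WW. The list mean was -2.25 and -1.64 in LL, 0.49 and -0.67 in WL, and 0.03 and -0.17 in LW. The part of these cells in the levels of the type 2 genes was not tested.

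Of 8 endothelial, 8 mesenchymal and 8 neutrophil genes none was called in LL against WW in the fit of all 8 arrays, and Pdgfrb fell against LW (adjusted p = 0.0463 with limma). Of the mesenchymal genes 4 rose and 1 fell without the WL arrays, and 1 rose and 1 fell in each of the other lists. Cldn5 and Kdr were at 0.70 and -0.90 in LL against WW, and list means of endothelium and mesenchyme lay between -0.17 and 0.24 on the LL, WL and LW arrays. The neutrophil list, with Ly6g at 1.57 and Cxcr2 at -3.30, differed between mice of a group, from -0.99 to 0.31 in LL, from -1.25 to 0.70 in WL and from -0.96 to -0.06 in LW.

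**Figure D5:**
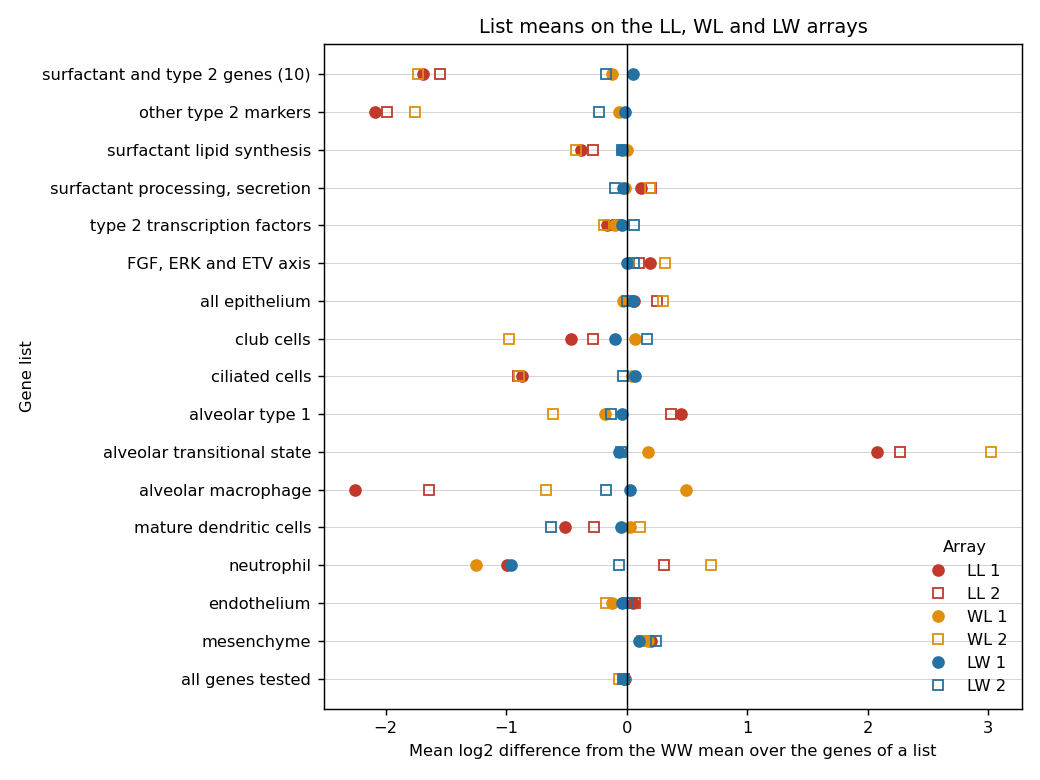
Mean log2 difference from the WW mean over the genes of each list (x axis), for each LL, WL and LW array (filled circles replicate 1, open squares replicate 2; colours are groups). The 10 surfactant and type 2 genes are at -1.69 and -1.55 in LL and -1.73 in WL replicate 2, and the transitional state list is at 2.08 to 3.02 on the same arrays.

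The genes whose levels ran most like those of Sftpc over the 8 arrays were sought among 14733 named genes above background on all arrays, by the root mean square of the differences after centring on WW. They were the carboxypeptidase Cpm (0.153), Plk5 (0.153), Srcin1 (0.155), Dnah10 (0.166) and Adam22 (0.168), with LL between 1.84 and 2.18 below WW. Cpm was at 0.44 and 0.80 in LL, 2.32 and 0.43 in WL, 2.76 and 2.87 in LW, and 2.77 and 2.82 in WW. The nearest to Sftpb were Slc25a51 (0.0468), Thsd4 (0.0482), Magef1 (0.0547), the tight junction gene Cldn3 (0.0556) and Chrne (0.0593). Sftpb itself varied less over the arrays than Sftpc, and these distances were smaller. Genes were ranked on the same 8 arrays, of which 3 were low, so the ranking describes these mice only. The low LL levels of the genes nearest to Sftpc follow from how they were chosen.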

How the data were processed

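Total RNA of 8 whole lungs was measured on Agilent arrays with 60-base probes and 1 dye, Cy3. The authors' deposited array files hold intensity values per spot, extracted by Agilent Feature Extraction, version 11.5.1.1 in the submitters' processing notes, background-subtracted per the file headers and not scaled between arrays. The authors' deposited series table holds log2 values, which matched the log2 of that intensity minus the array's 75th percentile within 0.02 for all probes compared. Positions are on mm9, per the file headers.

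Control and non-uniform spots were left out, spots of a probe averaged, log2 taken and the array's 75th percentile subtracted. A probe was kept if both arrays of any group had it well above background (39603 of 56605), and a gene was represented by its brightest probe (25830 genes). No count depth exists for arrays, and their number limits the precision. Samples were grouped by their titles. Comparisons were LL, WL and LW against WW, LL against LW and WL, and the marrow by recipient interaction, fitted as 4 group means with limma 3.58.1 in R 4.3.3 (4 residual and 2.19 prior degrees of freedom; 3 and 2.06 without the WL arrays), with Benjamini-Hochberg adjustment over all genes and calls at an adjusted p under 0.05. The scripts were tested on simulated data. Alternatives were another background correction (normexp, offset 50), normalization, percentile, filter, probe rule, variance model, source of values and set of arrays, and the replicate number as a block. Testing all kept probes was added after seeing the data.

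Named are all 10 genes, a fixed set of markers, up to 4 called genes of each list (in LL against WW or LW) or else the 2 with the smallest p, and the 5 nearest to Sftpc and Sftpb. Scd1, Fasn and Etv1 were added after their values were seen. The members and the lists were chosen with earlier results of these data known. No set test was run. Figures were drawn with matplotlib.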

Additional observations from a re-analysis of the deposited data

Results flagged for a closer look

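The second Slc34a2 probe was singled out because the recipient's genotype went with opposite differences under the 2 kinds of marrow. With LysM-DTR marrow both LysM-DTR recipients (LL, -0.09 and -0.40) were above both wild-type recipients (LW, -0.82 and -0.62), and with wild-type marrow both LysM-DTR recipients (WL, -0.89 and -2.09) were below both wild-type recipients (WW, -0.81 and -0.68). The interaction was 1.22 (log2, SE 0.533) and did not pass (adjusted p = 0.601 with limma over all kept probes), and WL replicate 1 was below the WW mean by only 0.15. The brighter Slc34a2 probe had an interaction of -1.02 (SE 0.885, adjusted p = 0.872).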

How the results depend on the processing

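Over 19 alternatives the difference between LL and WW kept its sign in all 10 genes. Several of these could not turn it, because they left the LL and WW means unchanged. They were the fits without WL or LW arrays, with the compared arrays alone, with the replicate block or with the other variance model. Of 190 values 158 kept their side of the threshold and 32 newly passed it, in the fits without 1 or both WL arrays or with the compared arrays alone. A lone WL mouse adds nothing to the error of LL against WW or LL against LW. Leaving out 1 or both WL arrays is therefore the same fit for these comparisons. The newly passing values are the same genes counted again, and not separate alternatives that agree. Of the 10 genes, 8 in place of 0 were called in LL against WW and in LL against LW, both without both WL arrays and with only the arrays compared. Leaving out single arrays called 0 to 8 of the 10 in LL against WW, LL against LW and LL against WL, 0 to 10 in WL against WW and 0 to 6 in the interaction. The same fits called 4 to 8286 genes in LL against WW, 4 to 8485 in LL against LW, 23 to 5092 in LL against WL, 0 to 9741 in WL against WW, 0 to 8 in LW against WW and 0 to 2209 in the interaction. The lowest counts in LL against WW, 4 genes, came without LL replicate 1 or WW replicate 1. Named genes of other lists lost their calls in many of these fits, Cebpa, Ccr7, Ear2 and Mrc1 also in the replicate block.

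All genes called in LL against WW, LL against LW and LL against WL were 808, 723 and 445. They were 400, 291 and 255 with no detection filter, and 6245, 7141 and 0 with only the arrays compared, and 8286 and 8485 for the first 2 without both WL arrays. In LW against WW 14 genes became 6 with no filter, 7 with the other percentile, 2 without both WL arrays, and 0 with another variance model, normexp, the strict filter or only the arrays compared. In WL against WW 1 gene became 0 with the variance model, no filter, normexp, the strict filter and only the arrays compared. The interaction's 16 genes became 1 with no filter, 10 with normexp, 8 with the strict filter and 53 with quantile normalization. The cause was not tested.

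Replicate numbers did not pair the mice (correlations of same-numbered deviations from -0.10 to 0.19). The replicate block called 447, 316, 272, 1, 0 and 2 genes in LL against WW, LL against LW, LL against WL, LW against WW, WL against WW and the interaction, and none of the 10.

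Signs turned when single arrays were left out for Sftpd in LL against LW (-0.30 to 0.13, above 0 without LL replicate 1, at 0.036, or LW replicate 1), for Lamp3 (-2.37 to 0.015) and Sftpd (-0.76 to 0.14) in WL against WW, above 0 without WL replicate 2, and for Epcam in LL against WW (-0.32 to 0.012, above 0 without LL replicate 1). Scgb1a1 was at 7.1e-06 in LL against WW under quantile normalization. The median over all genes in WL against WW was -0.16 with no filter and -0.13 with normexp, beside -0.05.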
